A study of Mus musculus with 15 samples.

Results

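The genes described here encode potassium leak channels of the two-pore domain family. The family members considered were Kcnk1, Kcnk2, Kcnk3, Kcnk4, Kcnk9, Kcnk10, Kcnk12, Kcnk13 and Kcnk18, which are 9 of the 19938 genes that were tested on the array. A member was any probe set, the array's set of short probes for 1 transcript, whose annotated gene symbol was on that list, and each of the 9 genes had exactly 1 probe set. The rule that names them uses no measured value, though the list was chosen with earlier results of these data known.

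Each subunit of these channels carries a pair of pore-forming domains, and paired subunits make a channel that passes potassium over a wide range of voltages. The outward leak holds sensory neurons near their resting potential, so that opening such channels quiets a neuron and closing them makes it easier to excite. The TREK subfamily (Kcnk2 for TREK-1, Kcnk4 for TRAAK, Kcnk10 for TREK-2) is opened by membrane stretch, warmth and certain lipids, the TASK channels (Kcnk3 and Kcnk9) are closed by external acid, TWIK-1 (Kcnk1) passes a small leak, THIK-1 (Kcnk13) is inhibited by halothane and THIK-2 (Kcnk12) is nearly silent on its own, and TRESK (Kcnk18) is switched on by calcium through the phosphatase calcineurin.

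The study measured RNA of sorted sensory neurons from the dorsal root ganglia, the clusters of sensory cell bodies beside the spinal cord, of C57BL/6 mice in which green fluorescent protein stands under the promoter of CGRP, the calcitonin gene-related peptide. Cells of lumbar ganglia 2 to 5 with a diameter above 26.9 µm were sorted by green fluorescence and by wheat germ agglutinin-AF647, a tracer that had been placed 5 days earlier in the gastrocnemius muscle or the saphenous nerve. Muscle neurons were CGRP-negative and came from animals whose muscle was injected with saline, acid or CFA, while skin neurons were CGRP-positive and came from animals whose paw was injected with saline or CFA. CFA is an abbreviation of the labels and in this field usually stands for complete Freund's adjuvant, an agent used to inflame tissue. There were 3 arrays in each of these 5 groups, described by the submitters as biological replicates, and all groups shared the reporter line, the size gate, the tracer and the amplification of 50 ng of RNA. Target tissue, CGRP status, tracer site and injection site differed together between skin and muscle groups, so their parts in any skin-muscle difference cannot be told apart. The labels give neither the time from injection to collection nor the age of the animals. The study's title asks whether mechanosensitive proteins of myelinated afferents are sensitized by inflammation.

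The arrays differed in the spread of their values. The SD of the log2 expression values over all genes was 1.66 to 1.80 on 5 of the 6 skin arrays and 1.28 to 1.55 on the 9 muscle arrays, and replicate 1 of the saline paw group, at 1.42, stood with the muscle arrays. As a rough measure of background, the 95th percentile of the mean level of 1194 olfactory and vomeronasal receptor genes, 2.44 on the log2 scale, was taken as a dim limit. All 8 pan-neuronal markers lay above it in every group, and their mean log2 level ranged from 6.65 to 7.73 on muscle arrays, from 7.57 to 8.61 on saline paw arrays and from 8.44 to 8.52 on CFA paw arrays. The 4 measured markers of peptidergic nociceptors averaged 4.57 to 5.38 on muscle arrays and 6.03 to 7.58 on skin arrays. The 5 markers of satellite glia averaged 6.06 to 6.90 on muscle arrays and 6.08 to 7.06 on skin arrays, and the 7 macrophage markers 2.26 to 2.52 and 2.18 to 2.53 on muscle and skin arrays, about the dim limit. In a pooled sample of sorted cells, fewer cells of a type and less RNA per cell cannot be told apart.

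Of the 9 members, the 2 that separated skin from muscle neurons were Kcnk4 and Kcnk10, both of the TREK subfamily. RefSeq promoter windows of the assembly GRCm38.p6 were matched by symbol for 7 of the 9 members, with 250 bases before and 50 after an annotated start. The windows of these 2 genes are shown because both were higher in skin than in muscle neurons. Capitals mark a GC box (the letters GGGCGG, searched on both strands). The first is chr19:6934466-6934765 and the second, at the first of 2 annotated starts of its gene, is chr12:98578164-98578463, both on the minus strand and written 5′ to 3′ along the gene:
Kcnk4: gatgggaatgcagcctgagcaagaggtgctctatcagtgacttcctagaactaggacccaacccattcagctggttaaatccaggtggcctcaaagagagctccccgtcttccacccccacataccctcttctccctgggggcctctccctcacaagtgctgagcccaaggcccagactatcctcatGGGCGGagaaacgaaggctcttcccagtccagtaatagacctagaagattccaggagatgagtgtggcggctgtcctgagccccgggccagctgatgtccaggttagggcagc
Kcnk10: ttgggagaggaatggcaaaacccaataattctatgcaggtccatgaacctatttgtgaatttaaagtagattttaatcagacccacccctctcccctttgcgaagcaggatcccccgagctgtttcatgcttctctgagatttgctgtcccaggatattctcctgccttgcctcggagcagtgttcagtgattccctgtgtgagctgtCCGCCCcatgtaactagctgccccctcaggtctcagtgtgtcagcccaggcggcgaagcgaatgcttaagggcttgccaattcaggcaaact

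The GC box began 63 bases before the start in the Kcnk4 window and 42 bases before it in the Kcnk10 window, and 35.7% of all 32851 promoter windows of this length held the same letters. The Kcnk4 window also held 4 E-boxes (CANNTG, in 72.3% of windows), and the Kcnk10 window held none. Neither window held a cyclic AMP response element (TGACGTCA, 1.79% of windows), an AP-1 site (TGANTCA, 7.81%), the RUNX core (TGTGGT, 16.8%) or a TATA box (TATAAA, 13.6%). The window at the other Kcnk10 start held none of the 6 motifs. A match describes letters in a window and is not a binding site.

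Kcnk4, which encodes TRAAK, was higher in skin than in muscle neurons. Its log2 expression was 3.83, 4.09 and 3.88 on the saline muscle arrays, 3.51, 4.23 and 4.41 on the acid muscle arrays, and 3.64, 4.33 and 3.97 on the CFA muscle arrays. On the skin arrays it was 4.92, 5.56 and 5.56 after saline and 5.60, 5.28 and 5.40 after CFA. Every skin array was above every muscle array, with the closest approach between saline paw replicate 1 and acid muscle replicate 3, and 2.44% of all genes separated the 6 skin arrays from the 9 muscle arrays upward in this way. In the order of group means, CFA paw 5.42 ± 0.16 (SD, n = 3) and saline paw 5.35 ± 0.37 led acid muscle 4.05 ± 0.48, CFA muscle 3.98 ± 0.35 and saline muscle 3.94 ± 0.14. The only step between neighbours in that order that was larger than the pooled SD within groups was the 1.30 between saline paw and acid muscle.

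The saline groups, the controls of the study, compare skin and muscle neurons without acid or CFA. Kcnk4 was 2.66-fold higher in the skin neurons (log2 difference 1.41, SE 0.242, limma adjusted p = 0.00942, 95% interval 0.89 to 1.93). The CFA groups, which share no array with the saline groups, gave 2.72-fold (log2 difference 1.44, SE 0.242, limma adjusted p = 0.00336). The saline difference minus the CFA difference was -0.035 (95% interval -0.77 to 0.70) and was not called. The mean of both differences was 1.43 with an SE of 0.171 and a limma adjusted p of 0.00013.

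Kcnk10, which encodes TREK-2, was also higher in skin than in muscle neurons. On the muscle arrays it was 2.83, 2.72 and 2.89 after saline, 2.30, 3.12 and 2.72 after acid, and 2.59, 2.51 and 2.55 after CFA. The skin arrays gave 3.63, 3.62 and 4.17 after saline and 4.06, 3.20 and 3.44 after CFA. All skin arrays again lay above all muscle arrays, but narrowly, with CFA paw replicate 2 just above acid muscle replicate 2. Group means ran from saline paw 3.81 ± 0.31 (SD, n = 3) through CFA paw 3.57 ± 0.45, saline muscle 2.81 ± 0.087 and acid muscle 2.71 ± 0.41 to CFA muscle 2.55 ± 0.043, and only the step of 0.76 between CFA paw and saline muscle was larger than the pooled SD. The muscle values lay near the dim limit, and acid muscle replicate 1 was under it.

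Kcnk10 was 1.99-fold higher in skin than in muscle neurons after saline (log2 difference 1.00, SE 0.232, limma adjusted p = 0.0434, 95% interval 0.50 to 1.49). After CFA it was 2.02-fold higher (log2 difference 1.02, SE 0.232, limma adjusted p = 0.0176). The mean of both differences was 1.01 with an SE of 0.164 and a limma adjusted p of 0.00112.

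**Figure D1:**
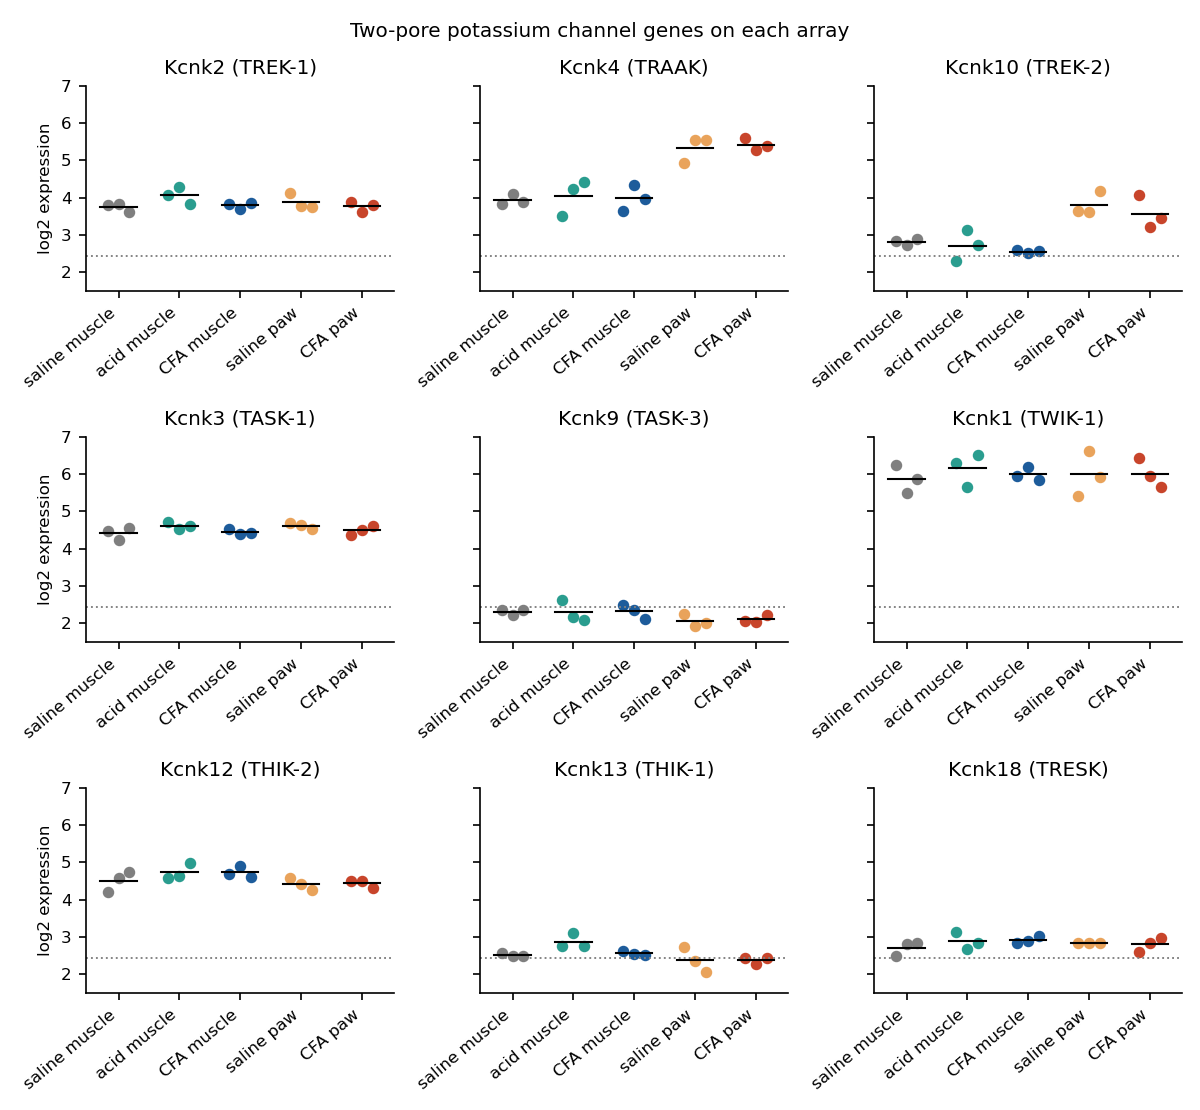
Log2 expression of the 9 members on each array, with the 5 groups along the horizontal axis, 1 point per array (replicates 1 to 3 from left to right) and a bar at the group mean. The dotted line is the dim limit of 2.44. Kcnk4 and Kcnk10 sit higher on the 6 skin arrays than on the 9 muscle arrays, and the other 7 genes overlap between tissues.

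Thus 2 of 9 members were called higher in skin neurons after saline and none lower, against 1.87% and 0.171% of all genes, and the members' median difference was 0.13 against -0.016 for all genes. After CFA the same 2 of 9 were called higher and none lower, against 5.75% and 0.667% of all genes, with medians of -0.022 and -0.041. For the mean of both pairs 2 of 9 were called higher and none lower, against 11.6% and 3.12% of all genes. The groups did not overlap, with skin higher, for the same 2 members in each pair, compared with 8.11% of all genes after saline and 18.9% after CFA. Since the list was chosen with earlier results of these data known, these shares give a description and no test.

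These calls depended on how the arrays were fitted and scaled. Under the reported scaling 373 genes were higher and 34 lower in skin neurons after saline, whereas quantile normalization gave 254 and 93, cyclic loess 317 and 142, and centring on array medians 198 and 15. With array SD in the model the split turned, to 164 higher and 206 lower, and the CFA pair went from 1146 and 133 to 232 and 212. With arrays weighted by their fit, 4272 were higher and 3107 lower after saline. Kcnk4 and Kcnk10 were called higher in both pairs under all 3 of these scalings. With array SD in the model, Kcnk4 after saline kept its call, while Kcnk10 after saline had a difference of 1.01 and a limma adjusted p of 0.0812. Under the same covariate the CFA pair gave 1.08 for Kcnk4 and 1.04 for Kcnk10, with limma adjusted p of 0.0557 and 0.0897. Over the 15 arrays the correlation of the log2 level with the array's SD was 0.839 for Kcnk4 and 0.657 for Kcnk10, values that share the split between skin and muscle, and the part of this spread in the difference was not tested further.

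When only the 6 saline arrays were fitted, the same differences had limma adjusted p of 0.174 for Kcnk4 and 0.189 for Kcnk10.

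Single arrays also mattered. Without saline paw replicate 1, the array that stood with the muscle arrays in spread, the saline difference was 1.62 for Kcnk4 (limma adjusted p = 0.000562) and 1.08 for Kcnk10 (limma adjusted p = 0.0096), while the share of all genes called higher went from 1.87% to 14.1% and lower from 0.171% to 5.1%. Without saline paw replicate 2 or 3, Kcnk4 had limma adjusted p of 0.0653 and 0.0724, and 51 and 47 genes in all were called higher. Kcnk10 lost its saline call when any of 9 arrays was left out, namely any saline muscle or CFA muscle array, saline paw replicate 2 or 3, or CFA paw replicate 3, with limma adjusted p up to 0.241. Over all 15 leave-outs the number of genes called higher ranged from 47 to 2807 after saline and from 456 to 2106 in the CFA pair. Arrays outside the pair enter only through the spread that all groups share. In the CFA pair Kcnk10 lost its call without any 1 of the CFA muscle arrays or without CFA paw replicate 1, where the difference was 0.77 (limma adjusted p = 0.0901). The mean of both pairs was called for both genes under all 25 other settings.

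**Figure D2:**
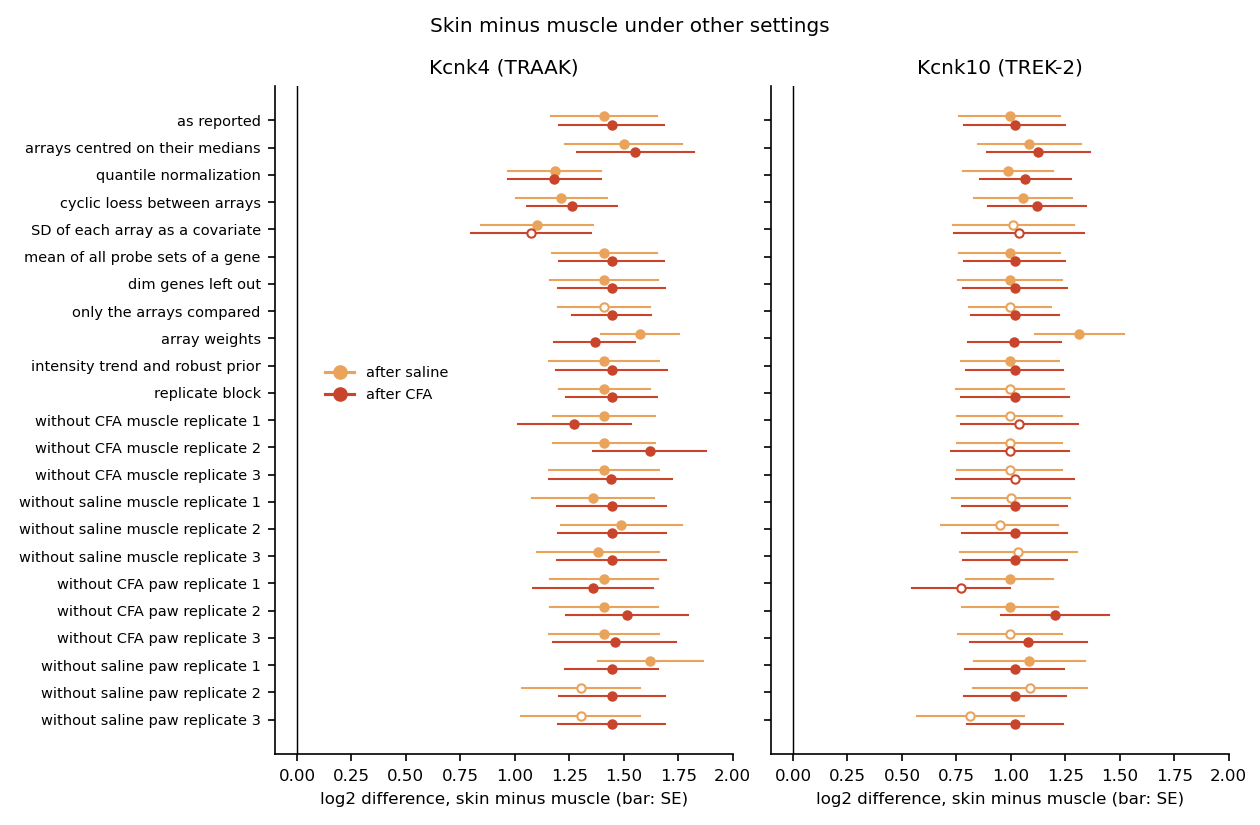
Log2 difference of Kcnk4 (left) and Kcnk10 (right), skin minus muscle, under the reported fit and 22 of the other settings listed on the vertical axis, with bars of 1 SE. Filled points had a limma adjusted p under 0.05 and open points did not. Every difference is above 0, while the Kcnk10 points after saline are often open.

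The third TREK gene, Kcnk2 for TREK-1, had no such difference. Its 15 arrays lay between 3.62 and 4.30, and the group means between 3.75 in saline muscle and 4.07 in acid muscle. The skin-minus-muscle difference was 0.13 after saline (95% interval -0.19 to 0.45) and -0.022 after CFA (95% interval -0.34 to 0.30). These intervals leave out differences as large as those of Kcnk4 and Kcnk10. In the order of means only the step of 0.19 from acid muscle to saline paw was above the pooled SD.

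For the TASK channels, which external acid closes, Kcnk3 (TASK-1) ranged from 4.23 to 4.72 over all arrays with group means of 4.41 to 4.62. Its skin-minus-muscle difference was 0.21 after saline (95% interval -0.060 to 0.47) and 0.041 after CFA, where quantile normalization and cyclic loess turned the sign. Kcnk9 (TASK-3) had means of 2.05 to 2.32, under the dim limit in all 5 groups. Its difference of -0.25 after saline and -0.22 after CFA was thus between values that are hard to tell from background, and neither was called.

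Kcnk1, which encodes TWIK-1, had the largest pooled SD within groups of the 9 members. Its saline paw arrays read 5.43, 6.64 and 5.94, and thus held both the lowest and the highest of the 15 values. The group means were 5.86 to 6.15, and no step between neighbours exceeded the pooled SD of 0.423. The skin-minus-muscle difference was 0.14 after saline (95% interval -0.51 to 0.79) and 0.0056 after CFA (95% interval -0.65 to 0.66), and both turned negative under quantile normalization (-0.28 and -0.50) and cyclic loess.

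Of the THIK genes, Kcnk12 (THIK-2) had group means of 4.43 to 4.73 and Kcnk13 (THIK-1) of 2.38 to 2.87. Kcnk12 was 4.68, 4.90 and 4.62 on the CFA muscle arrays and 4.51, 4.51 and 4.30 on the CFA paw arrays, so that skin lay below muscle without overlap. Its difference was -0.29 (SE 0.164) and was not called (limma adjusted p = 0.338). Kcnk13 was 2.62, 2.54 and 2.51 on the CFA muscle arrays and 2.42, 2.28 and 2.43 on the CFA paw arrays, again without overlap. Its difference of -0.18 (limma adjusted p = 0.56) was not called either, and its mean was under the dim limit in both paw groups. A downward separation of this kind in the CFA pair was found for 17.1% of all genes. Kcnk13 was called lower in skin after saline when arrays were weighted by their fit (-0.41, limma adjusted p = 0.0106), a setting that called 15.6% of all genes lower and gave saline paw replicate 1 a weight of 0.148 and replicate 3 a weight of 7.18. Its sign turned with array SD in the model.

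Kcnk18, which encodes TRESK, had group means of 2.70 to 2.92, close above the dim limit, with no step between neighbours above the pooled SD. Its skin-minus-muscle difference was 0.13 after saline (95% interval -0.19 to 0.45) and -0.11 after CFA (95% interval -0.43 to 0.21). The deposited value was exactly 2.83318 on 6 of the 15 arrays, among them all 3 saline paw arrays, so that the SD of 0 in that group does not describe biological spread.

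**Figure D3:**
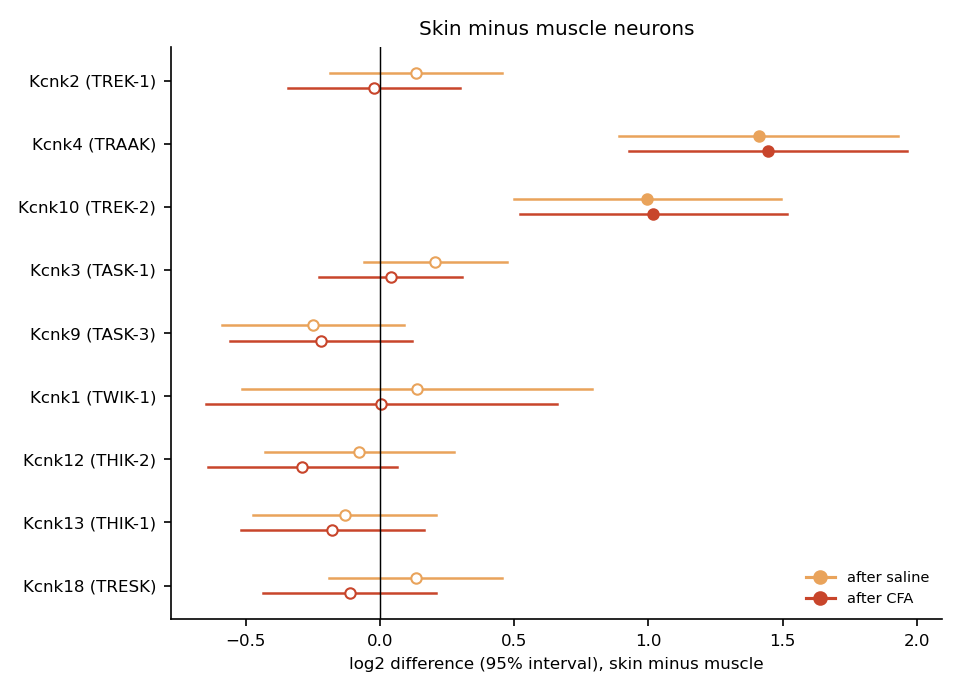
Log2 difference between skin and muscle neurons for the 9 members (vertical axis) after saline and after CFA, with 95% intervals. Filled points had a limma adjusted p under 0.05. Kcnk4 lies at 1.41 and 1.44 and Kcnk10 at 1.00 and 1.02, and the intervals of the other 7 genes include 0.

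The treatment comparisons ask whether inflammation or acid changed these genes within a tissue. No member was called in any of them, and 0% of all genes was called by the same rule in each of CFA paw against saline paw, CFA muscle against saline muscle, acid muscle against saline muscle, and CFA muscle against acid muscle. Those counts over all genes were 0 as fitted, and rose to 32 higher and 93 lower for CFA in skin with array weights, and, without CFA muscle replicate 1, to 8 higher for CFA against saline and 6 higher for CFA against acid in muscle, with no member among them. At an unadjusted limma p under 0.05, 0 of 9 members passed in skin after CFA (1.21% of all genes), 0 in muscle after CFA (2.6%), 2 in muscle after acid (2.85%) and 0 between CFA and acid in muscle (3.14%). The test of whether the CFA effect differed between muscle and skin called no member and 0% of all genes (1 gene, no member, without CFA muscle replicate 1), and at an unadjusted limma p under 0.05 it passed 0 members and 1.63% of all genes.

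No change of Kcnk4 with treatment was detected. Its difference after CFA was 0.079 in skin (95% interval -0.44 to 0.60) and 0.045 in muscle (95% interval -0.47 to 0.56), and after acid 0.11 (95% interval -0.40 to 0.63). All 3 intervals include 0. The fitted difference of Kcnk10 after CFA was -0.24 in skin (95% interval -0.74 to 0.26) and -0.26 in muscle (95% interval -0.76 to 0.24). In muscle its 3 CFA arrays lay below the 3 saline arrays without overlap, as 4.1% of all genes did.

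The 2 genes at an unadjusted limma p under 0.05 after acid were Kcnk13 and Kcnk2. Kcnk13 read 2.74, 3.11 and 2.75 on the acid arrays and 2.56, 2.49 and 2.49 on the saline muscle arrays, without overlap, as 3.98% of all genes did upward. On the saline muscle arrays Kcnk13 lay close above the dim limit of 2.44, and 2 of its 3 values were the same deposited number, 2.49474. Its difference was 0.35 (SE 0.158), which did not pass after adjustment. It also lay higher after acid than after CFA, where a separation in this direction was found for 5.23% of all genes. Kcnk2 read 4.07, 4.30 and 3.84 after acid and 3.79, 3.84 and 3.62 after saline, a difference of 0.32 (SE 0.149) with overlap at a shared value. Acid muscle replicate 2 carried the highest value of both genes, was the array with the lowest SD over genes (1.28), and without it the differences were 0.23 and 0.21.

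Over all members the median acid difference was 0.21, against 0.016 for all genes, and 7 of the 9 differences were positive, as were 53.7% of those of all genes. The other muscle comparison gave a median of 0.045 for CFA, against -0.012 for all genes, with 8 of 9 differences positive against 47.1% of all genes. The skin comparison gave -0.0063 against -0.011, with 4 of 9 positive against 47.1%. The acid and CFA comparisons in muscle share the saline muscle arrays. Of the TASK genes, Kcnk3 differed by 0.21 after acid (95% interval -0.061 to 0.47), and Kcnk9 by -0.0055 at levels under the dim limit. Kcnk18 differed by 0.22 after CFA in muscle (95% interval -0.10 to 0.54), by 0.18 after acid and by -0.028 after CFA in skin.

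**Figure D4:**
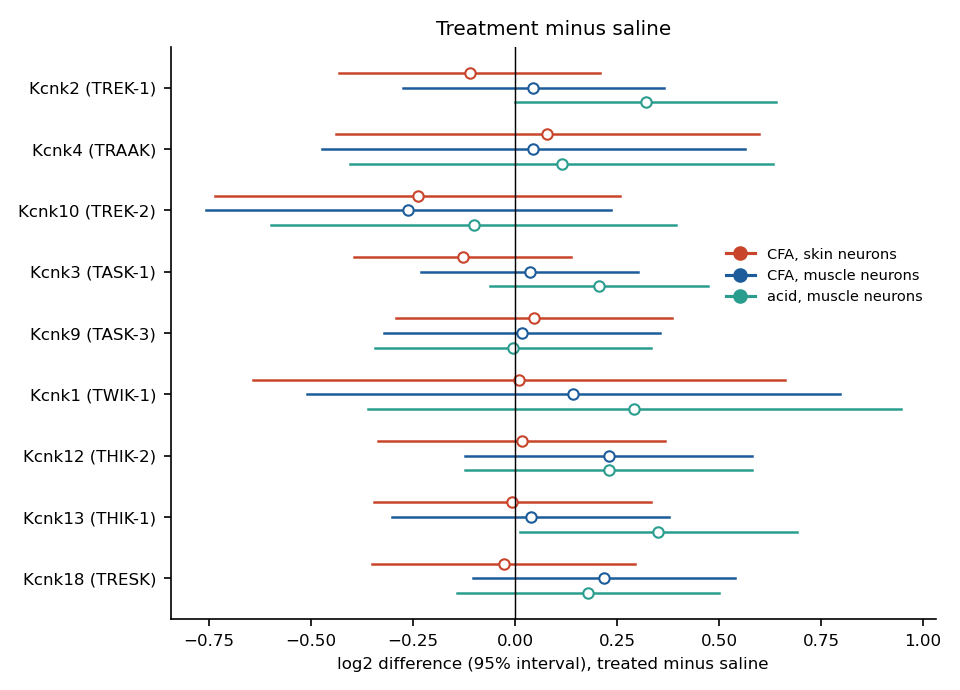
Log2 difference between treated and saline groups for the 9 members (vertical axis), for CFA in skin neurons, CFA in muscle neurons and acid in muscle neurons, with 95% intervals. All points are open, since no member had a limma adjusted p under 0.05. The differences lie between -0.26 and 0.35.

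The remaining family genes on the array were Kcnk5, Kcnk6, Kcnk7, Kcnk15 and Kcnk16, and 0 of these 5 were called in any comparison. Of all genes, 1.87% were called higher in skin and 0.171% lower after saline, and 5.75% and 0.667% after CFA. For the mean of both pairs the shares were 11.6% and 3.12%, and each of the other comparisons called 0%. Kcnk5 and Kcnk6 had group means of 2.02 to 2.42, under the dim limit throughout. Kcnk16 was the nearest to a call, with a skin-minus-muscle difference of -0.64 in the CFA pair (limma adjusted p = 0.11). In the mean of both pairs, 3 of the 5 (Kcnk5, Kcnk15 and Kcnk16) were called lower in skin when saline paw replicate 1 was left out, where 12.6% of all genes were. Array weights called Kcnk7 and Kcnk16 lower in that mean (22.1% of all genes) and Kcnk16 lower in the CFA pair (6.23%).

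Proteins that bind or regulate these channels were followed through 19 measured genes of a list of 20. After saline, 1 of 19 was called higher in skin neurons and none lower, against 1.87% of all genes higher, with a list median of 0.44 against -0.016 for all genes. It was Ppp3ca, a catalytic subunit of calcineurin, at 8.01, 9.32 and 9.40 on the saline paw arrays and 7.72, 7.29 and 6.41 on the saline muscle arrays (log2 difference 1.77, SE 0.386, limma adjusted p = 0.0323). After CFA 6 of 19 were called higher and none lower, against 5.75% of all genes higher, with a list median of 0.46 against -0.041. Ppp3ca was again among them (1.97, limma adjusted p = 0.00843). Mark2, a kinase that acts against calcineurin on TRESK, was higher by 1.08 (limma adjusted p = 0.00336), and Ywhah, a 14-3-3 protein that binds TRESK, by 1.49 (limma adjusted p = 0.0138). The others were Map2, which binds TREK channels (1.41), S100a10, which binds TASK-1 (1.15), and Bves, a membrane protein that binds TREK-1 (0.95). The count after saline was 10 of 19 without saline paw replicate 1, where 14.1% of all genes were higher. It was 12 of 19 with array weights (21.4% of all genes). With arrays centred on their medians it was 0 of 19 (0.993%). With only the arrays compared it was also 0 of 19, a setting that called 0% of all genes. The count after CFA was 3 of 19 under quantile normalization (3.05% of all genes) and 1 of 19, Mark2, with array SD in the model (1.16%). It was 9 of 19 with array weights (14.1%) and 9 of 19 without saline paw replicate 1 (10.6%). With only the arrays compared, 9 of 19 were called higher (12.7%) and 1 lower (3.41%). Neuron markers were higher in skin neurons in the same comparisons (2 of 8 after saline and 6 of 8 after CFA), and their part in these counts was not tested.

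Other channels and pumps that set the resting potential were measured for 16 of 22 listed genes. After saline 1 of 16 was called higher in skin neurons (1.87% of all genes), namely Kcnq5, a channel of the M-current, at 4.39, 5.81 and 5.84 on the saline paw arrays and 3.68, 3.54 and 2.85 on the saline muscle arrays. Its difference was 1.99 (limma adjusted p = 0.00728). The count was 4 of 16 without saline paw replicate 1 (14.1% of all genes) and 5 of 16 with array weights (21.4%). It was 0 of 16, Kcnq5 included, with only the arrays compared (0%). After CFA 3 of 16 were called higher (5.75% of all genes), namely Kcnq5 (2.50), Kcnj3, a G-protein-gated inward rectifier (1.08), and Atp1b1, a subunit of the sodium pump (1.34). That count was 1 of 16 with array SD in the model (1.16% of all genes), 5 of 16 with only the arrays compared (12.7%) and 6 of 16 with array weights (14.1%). None was called lower in either pair as fitted. Slc12a2, a chloride importer, was picked out after its values were seen. It was called lower in both pairs under cyclic loess and with array SD in the model. Under cyclic loess 0.712% of all genes were called lower after saline and 1.14% after CFA. With array SD in the model these shares were 1.03% and 1.06%. Array weights called 1 other listed gene lower in the CFA pair (6.23% of all genes). Neither list had a gene called in any treatment comparison.

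The neuron markers moved with the skin-muscle split, as given above, and so did those of peptidergic nociceptors, of which 4 of 4 were called higher in skin in both pairs. Skin neurons had been sorted as CGRP-positive and muscle neurons as CGRP-negative. Among all genes, 1.87% were called higher and 0.171% lower after saline, and 5.75% and 0.667% after CFA. Markers of large myelinated neurons were called higher for 2 of 9 after saline and 3 of 9 after CFA, those of non-peptidergic nociceptors lower for 1 of 6 and 2 of 6, and those of itch neurons higher for 1 of 5 and lower for 2 of 5 in both pairs. Markers of satellite glia, macrophages, neutrophils, lymphocytes, fibroblasts and endothelial cells had 0 called in either pair, and 1 of 4 Schwann cell markers was lower in skin after CFA. The part of these differences in those of Kcnk4 and Kcnk10 was not tested.

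The genes whose log2 values ran closest to Kcnk4 over the 15 arrays were Cntnap1 (Pearson's r 0.978), Ncoa1 (0.975) and Bean1 (0.973). After each group mean was subtracted they were Apba2 (0.917), Cntnap1 (0.905) and Lhfpl4 (0.905). For Kcnk10 they were Klhdc8a (0.937), Vps37c (0.907) and Htr3b (0.907), and after subtracting group means Mmp13 (0.863), Lrrc29 (0.85) and Sik3 (0.847). Kcnk4 and Kcnk10 correlated at 0.885, and at 0.503 within groups. These arrays share the skin-muscle split and the spread of their values, and the correlations are a description over 15 arrays picked from all genes.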

How the data were processed

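RNA of 15 samples was measured on Affymetrix whole-transcript arrays. The table the authors deposited gives a log2 expression value for each of 35556 probe sets. RMA and Partek are named, without versions, by the submitters' processing notes, and the log base was read from the range of the values. RMA summarizes and quantile-normalizes probes, so differences are read as relative levels of 1 probe set between arrays. The dim limit is an exception, since it sets a gene's level roughly against other probe sets. The deposited values still differed in spread between arrays, as given above. Of the probe sets, 21789 had 1 gene symbol, 1621 several and 12146 none. The brightest probe set stood for each of 19938 genes. The 5 group means were fitted with limma 3.58.1 in R 4.3.3 (eBayes, 10 residual and 4.32 prior degrees of freedom), and p-values were adjusted by Benjamini-Hochberg over all genes, two-sided, with a threshold of 0.05, for 8 comparisons. The script was tested on simulated data. The members and gene lists were chosen with earlier results of these data known. All members are named, with the 3 genes most correlated with each called member and the called genes of each list, or at most 2 uncalled ones. A gene's fold is 2 to the power of its difference. The number of arrays limits the precision, and no batch is named in the labels. The genome build of the array annotation is not given in the sources used here. Other scalings, fits and left-out arrays were tried as alternatives.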

Additional observations from a re-analysis of the deposited data

How the results depend on the processing

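The 6 called differences (Kcnk4 and Kcnk10, in each skin-muscle pair and in the mean of both) kept their direction under all 25 alternatives, and 129 of 150 such fits stayed past the threshold. After saline, the count of called members went from 2 to 1 with array SD in the model (the SD covariate). That setting called 0.823% of all genes higher and 1.03% lower. The count was also 1 with the replicate block (1.46% of all genes higher, 0.12% lower). It went to 0 when only the arrays compared were fitted, where limma called no gene at all. It was 0 to 2 when arrays were left out in turn. After CFA it went to 0 with the SD covariate (1.16% of all genes higher, 1.06% lower). It was 1 to 2 when arrays were left out. For the mean of both pairs it rose to 5 with array weights (Kcnk4 and Kcnk10 higher, Kcnk9, Kcnk12 and Kcnk13 lower), a setting that called 23.8% of all genes higher and 22.1% lower. No sign of pairing by replicate number was seen (median correlation of deviations -0.041 for the same number and 0.069 for other numbers). The ranges were wide, -0.54 to 0.33 and -0.51 to 0.58, so these medians cannot decide whether samples were paired. The replicate block moved Kcnk10 after saline to an adjusted p of 0.0696 by limma. Centring on medians moved the median of all genes in the CFA pair from -0.041 to 0.068.

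Of the 66 uncalled differences, 41 changed sign under at least 1 alternative. The largest of these was 0.18 in size as reported, and the cause was not tested. In skin minus muscle after saline, centring on medians gave Kcnk12 0.013, quantile normalization gave Kcnk1 -0.28, cyclic loess Kcnk1 -0.27, the SD covariate Kcnk1 -0.48 and Kcnk13 0.14, and array weights Kcnk2 -0.028. Leaving out arrays gave ranges of -0.18 to 0.43 for Kcnk1, -0.23 to 0.039 for Kcnk12 and -0.30 to 0.029 for Kcnk13. In skin minus muscle after CFA, centring gave Kcnk2 0.087, quantile normalization Kcnk1 -0.50 and Kcnk3 -0.16, cyclic loess Kcnk1 -0.48, Kcnk3 -0.14 and Kcnk18 0.0097, and the SD covariate Kcnk1 -0.73, Kcnk2 0.23 and Kcnk13 0.14. The ranges without 1 array were -0.21 to 0.19 for Kcnk1, -0.077 to 0.051 for Kcnk2 and -0.018 to 0.10 for Kcnk3. For the mean of both pairs, quantile normalization gave Kcnk1 -0.39 and Kcnk3 -0.063, cyclic loess Kcnk1 -0.38 and Kcnk3 -0.060, the SD covariate Kcnk1 -0.61 and Kcnk13 0.14, and array weights Kcnk2 -0.027 and Kcnk18 -0.0062. The ranges were -0.087 to 0.22 for Kcnk1, -0.0053 to 0.092 for Kcnk2 and -0.047 to 0.061 for Kcnk18.

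For CFA in skin, centring gave Kcnk13 0.023 and Kcnk18 0.0014, quantile normalization Kcnk1 -0.054, Kcnk12 -0.015, Kcnk13 0.027 and Kcnk18 0.0072, cyclic loess Kcnk1 -0.072, Kcnk13 0.028 and Kcnk18 0.010, the SD covariate Kcnk1 -0.11 and Kcnk13 0.044, and array weights Kcnk4 -0.13 and Kcnk13 0.25. The ranges were -0.28 to 0.33 for Kcnk1, -0.18 to 0.011 for Kcnk2, -0.13 to 0.19 for Kcnk4, -0.024 to 0.14 for Kcnk9, -0.066 to 0.10 for Kcnk12, -0.17 to 0.17 for Kcnk13 and -0.12 to 0.073 for Kcnk18. For CFA in muscle, array weights gave Kcnk2 -0.0018. The ranges were -0.043 to 0.33 for Kcnk1, -0.019 to 0.10 for Kcnk2, -0.058 to 0.10 for Kcnk3, -0.13 to 0.22 for Kcnk4 and -0.067 to 0.12 for Kcnk9. For acid in muscle, array weights gave Kcnk4 -0.12 and Kcnk9 0.14. The ranges were -0.067 to 0.38 for Kcnk4, -0.17 to 0.10 for Kcnk9 and -0.31 to 0.11 for Kcnk10.

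For CFA minus acid in muscle, Kcnk12 was 0.034 with centring, 0.027 with quantile normalization, 0.010 with cyclic loess and 0.00020 with the SD covariate, and array weights gave Kcnk4 0.20, Kcnk9 -0.14, Kcnk10 0.022, Kcnk12 0.050 and Kcnk18 -0.055. The ranges were -0.40 to 0.031 for Kcnk1, -0.34 to 0.11 for Kcnk4, -0.081 to 0.19 for Kcnk9, -0.37 to 0.045 for Kcnk10, -0.084 to 0.12 for Kcnk12 and -0.065 to 0.17 for Kcnk18. For the CFA effect in muscle minus that in skin, quantile normalization gave Kcnk4 0.0014, the SD covariate Kcnk4 0.024 and Kcnk13 -0.0066, and array weights Kcnk2 -0.00033, Kcnk4 0.21, Kcnk10 0.30 and Kcnk13 -0.23. The ranges were -0.19 to 0.42 for Kcnk1, -0.21 to 0.18 for Kcnk4, -0.12 to 0.073 for Kcnk9, -0.21 to 0.23 for Kcnk10 and -0.13 to 0.21 for Kcnk13.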

Other observations

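Identical values recurred between arrays in the deposited table. Of the 35556 probe sets, 13785 (38.8%) held a value that was repeated, to all printed digits, on at least 1 other array, and 7579 (21.3%) held a value found on 3 or more arrays. Among the members, 5 of 9 had a value repeated on at least 1 other array. Besides Kcnk18, Kcnk3 read 4.52724 on 3 arrays of different groups. The low Kcnk10 value of acid muscle replicate 1, 2.29729, occurred 622 times in the whole table. The origin of these repeats was not tested.

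Kcnk2 and Kcnk13 varied together across the 15 arrays at a Pearson's r of 0.770, and at 0.782 after group means were subtracted. Acid muscle replicate 2 was the highest array for both genes. This pair was picked out of all member pairs after the values were seen. Kcnk4 and Kcnk9 ran opposite to each other about as closely (-0.782, and -0.784 after group means were subtracted). The log2 level correlated with the array's SD at -0.440 for Kcnk2 and -0.752 for Kcnk13. Kcnk13 lay near the dim limit. The part of the arrays' spread in these correlations was not tested.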
